A study of Mus musculus with 18 samples.

Results

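Adipoq, Lep, Retn, Cfd, Plin1, Cidec, Plin4, Fabp4, Scd1 and Pck1 are 10 genes of adipocytes, and their levels were followed gene by gene through muscle as a reading of the fat in or around it. They were chosen by name from among 46725 genes. All mice were FVB and 20 weeks old: 3 were WT, 3 were HSA-LR, and 3 more HSA-LR mice had received Pip6a-PMO in the vein. HSA-LR mice carry a human skeletal actin transgene with expanded CTG repeats, expressed in skeletal muscle, and model myotonic dystrophy. Pip6a-PMO is a peptide-conjugated antisense oligomer against the CUG repeats of that transcript. The labels give the WT and HSA-LR groups as untreated, while the protocol they share with the treated mice names saline as the other injection (160 µL for each mouse), so whether these controls received saline is not settled. Gastrocnemius and quadriceps were taken from each of the 9 mice, which gave 18 libraries.

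White adipocytes store triglyceride in a single large droplet that is coated by perilipins and enlarged by Cidec, and they release hormones, the adipokines, into the blood. In limb muscle such cells lie between fibers and, under the fascia, around the muscle. Brown and beige adipocytes share much of this program and add Ucp1, which uncouples respiration to give heat. Levels were given as CPM, the counts of a gene as a share of its library, scaled to the usual CPM unit after TMM normalization. In bulk muscle, fewer adipocytes and less RNA per adipocyte cannot be told apart.

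The promoters of these genes were looked up because 9 of the 10 moved together from library to library. RefSeq promoters (build GRCm38.p6, from 250 bases before to 50 after the start) were found for 8 of the 10 genes, with 2 windows for Cidec, and Fabp4 and Scd1 were not matched. Letters of 4 motifs were searched on both strands in the 250 bases before the start only, in members and in all promoters alike. CCAAT stood in 2 of the 9 windows (Adipoq and Plin4) and in 33.8% of 32851 promoters. TTGCNNAA, a C/EBP-type motif, stood in 3 windows (Cidec, Lep and Plin1) and in 9.56% of promoters. AGGTCA, a site of nuclear receptors, and TATAAA stood in 0 of the 9 windows and in 14% and 12.4% of promoters. None of these motifs contains another. A match describes the letters only. The part of 4 windows that lies before the annotated gene is shown 5′ to 3′ on the strand of the gene, to set the adipokine promoters beside those of a droplet protein and an enzyme, with matches in capitals. They lie at chr16:23146286-23146535 (plus strand, Adipoq), chr6:29059971-29060219 (plus strand, Lep), chr7:79732904-79733026 (minus strand, Plin1) and chr2:173152823-173153047 (plus strand, Pck1).
Adipoq: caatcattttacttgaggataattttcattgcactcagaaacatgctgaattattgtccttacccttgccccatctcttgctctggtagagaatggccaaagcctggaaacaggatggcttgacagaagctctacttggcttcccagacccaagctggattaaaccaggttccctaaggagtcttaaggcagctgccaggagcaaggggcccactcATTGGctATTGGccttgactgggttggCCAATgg
Lep: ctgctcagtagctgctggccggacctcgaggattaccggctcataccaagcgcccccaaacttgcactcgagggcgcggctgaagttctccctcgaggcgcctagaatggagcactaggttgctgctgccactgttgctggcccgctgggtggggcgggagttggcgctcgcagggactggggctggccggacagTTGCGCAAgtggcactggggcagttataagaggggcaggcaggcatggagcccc
Plin1: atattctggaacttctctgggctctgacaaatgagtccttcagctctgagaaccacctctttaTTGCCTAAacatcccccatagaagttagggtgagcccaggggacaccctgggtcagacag
Pck1: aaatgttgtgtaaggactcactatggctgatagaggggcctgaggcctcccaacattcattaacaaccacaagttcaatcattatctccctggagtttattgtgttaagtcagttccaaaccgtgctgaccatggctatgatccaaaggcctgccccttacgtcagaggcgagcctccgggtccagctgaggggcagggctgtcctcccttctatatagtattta
Adipoq held CCAAT once on its own strand and had it on the other strand as ATTGG at 2 places. Lep held the palindrome TTGCGCAA, Plin1 held TTGCCTAA, and Pck1 held no match.

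Library totals ran from 98916844 to 143135976 counts, and the scarcest members, Retn and Lep, still had at least 84 and 98 counts in every library, so counting error was small beside the spread between mice. All 10 genes passed the filter on low counts in both muscles. Marker genes of skeletal muscle summed to between 128500 and 236900 CPM, and the defining adipocyte gene Adipoq had at least 427 counts in each library. The Y-linked genes of WT mouse 2 (labelled female) summed to 154.5 and 187.6 CPM in the gastrocnemius and quadriceps, and those of WT mouse 3 (labelled male) to 1.143 and 1.428 CPM, so the labelled sexes of these 2 mice went against their libraries. In every library but those of WT mouse 3 these genes summed to between 133.2 and 188.1 CPM. By these genes the sexes were thus mixed in the WT group only, a difference that lies within every comparison with WT mice. With WT mouse 2 or WT mouse 3 left out, no member was called between HSA-LR and WT mice in either muscle. None was called with all libraries either, so this cannot show whether the sex of these mice matters. Keratin and loricrin genes summed to 44.3 CPM in the quadriceps of treated mouse 3 and to at most 4.3 CPM elsewhere.

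Adipoq encodes adiponectin, the adipocyte hormone that raises insulin sensitivity (chr16:23146536-23158028). In the gastrocnemius it stood at 21.8, 15.1 and 16.5 CPM in WT mice 1, 2 and 3, at 4.95, 13.4 and 8.06 CPM in HSA-LR mice and at 6.49, 7.59 and 27.7 CPM in treated mice. In the quadriceps the values were 86.1, 23.1 and 27.8 CPM in WT mice, 66.2, 83.5 and 3.55 CPM in HSA-LR mice and 15.2, 15.7 and 5.69 CPM in treated mice. The quadriceps of HSA-LR mouse 3 was thus the lowest of all 18 libraries while those of the other HSA-LR mice were among the 3 highest. By group mean the order ran from HSA-LR quadriceps at 51.1 ± 42.1 CPM (SD, n = 3) through WT quadriceps at 45.6 ± 35.1, WT gastrocnemius at 17.8 ± 3.56, treated gastrocnemius at 13.9 ± 11.9 and treated quadriceps at 12.2 ± 5.63 to HSA-LR gastrocnemius at 8.79 ± 4.25 CPM. No neighbours in this order differed by more than the larger of their SDs.

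The hormone leptin, which signals fat stores to the brain, is encoded by Lep (chr6:29060220-29073877). Its gastrocnemius levels were 10.5, 5.67 and 3.01 CPM in WT mice, 0.756, 3.38 and 2.61 CPM in HSA-LR mice and 2.24, 2.39 and 6.84 CPM in treated mice. Quadriceps levels were 18.04, 6.87 and 3.58 CPM in WT mice, 14.5, 15.4 and 1.11 CPM in HSA-LR mice and 5.20, 3.92 and 1.68 CPM in treated mice. The 3 groups overlapped in the gastrocnemius, and WT and HSA-LR mice overlapped in the quadriceps.

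Resistin, an adipokine that in mice is made by white adipocytes, is the product of Retn (chr8:3655770-3660110). It reached 3.71, 2.05 and 6.46 CPM in the gastrocnemius of WT mice, 1.24, 3.28 and 1.43 CPM in HSA-LR mice and 0.643, 1.27 and 8.42 CPM in treated mice. In the quadriceps it stood at 15.9, 5.19 and 15.7 CPM in WT mice, 21.1, 23.6 and 1.05 CPM in HSA-LR mice and 3.33, 3.73 and 1.88 CPM in treated mice. Every treated quadriceps lay below every WT quadriceps.

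Adipsin, the complement factor D that adipocytes secrete, is encoded by Cfd (chr10:79890853-79892655). Its levels were 84.2, 49.3 and 88.2 CPM in WT gastrocnemius, 24.8, 60.1 and 35.4 CPM in HSA-LR gastrocnemius and 28.5, 34.3 and 151.2 CPM in treated gastrocnemius. WT quadriceps had 186.6, 59.0 and 148.0 CPM, HSA-LR quadriceps 231.0, 264.8 and 14.0 CPM and treated quadriceps 55.7, 65.4 and 24.9 CPM. The highest quadriceps value, in HSA-LR mouse 2, was 18.9 times the lowest, in HSA-LR mouse 3.

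Perilipin 1 guards the droplet of the adipocyte against lipases and is encoded by Plin1 (chr7:79720218-79732903). The gastrocnemius had 21.6, 16.1 and 14.8 CPM in WT mice, 6.04, 15.5 and 8.21 CPM in HSA-LR mice and 6.05, 6.75 and 35.2 CPM in treated mice. The quadriceps had 182.7, 40.3 and 31.8 CPM in WT mice, 123.2, 186.2 and 3.30 CPM in HSA-LR mice and 16.9, 18.6 and 8.14 CPM in treated mice. HSA-LR mice held both the highest and the lowest of the 18 values, which were 56.4-fold apart.

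Cidec promotes the fusion of droplets into larger ones (chr6:113424634-113435760). Gastrocnemius levels were 25.3, 16.0 and 17.6 CPM in WT mice, 5.03, 13.3 and 7.13 CPM in HSA-LR mice and 7.41, 8.71 and 25 CPM in treated mice. Quadriceps levels were 117.0, 30.6 and 34.2 CPM in WT mice, 81.3, 116.0 and 3.54 CPM in HSA-LR mice and 18.4, 22.1 and 5.15 CPM in treated mice. All HSA-LR gastrocnemius values lay below all WT values, whereas in the quadriceps these groups overlapped.

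Plin4 encodes a perilipin of nascent droplets that muscle fibers also express (chr17:56100591-56109803). It stood at 215.3, 174.7 and 254.4 CPM in the gastrocnemius of WT mice, 124.0, 174.5 and 253.8 CPM in HSA-LR mice and 277.4, 295.6 and 154.2 CPM in treated mice. In the quadriceps it stood at 290.3, 200.1 and 260.4 CPM in WT mice, 212.5, 230.1 and 246.6 CPM in HSA-LR mice and 313.1, 292.5 and 172.7 CPM in treated mice. Its 18 values spanned 2.52-fold, the least of the 10 genes, and the quadriceps of HSA-LR mouse 3 was the highest of its group.

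Fabp4, the fatty acid binding protein of adipocytes that capillary endothelium also makes, lies at chr3:10204088-10208576. In the gastrocnemius it reached 186.3, 184.8 and 204.2 CPM in WT mice, 124.4, 130.7 and 132.7 CPM in HSA-LR mice and 161.4, 144.6 and 266.5 CPM in treated mice. In the quadriceps it reached 790.5, 239.3 and 275.7 CPM in WT mice, 511.4, 711.7 and 99.8 CPM in HSA-LR mice and 175.6, 205.4 and 113.8 CPM in treated mice. The 3 HSA-LR gastrocnemius values were the closest together of all its groups (129.3 ± 4.31 CPM, SD, n = 3) and lay below all 6 other gastrocnemius values.

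Scd1, the desaturase that makes monounsaturated fatty acids, lies at chr19:44394455-44407879, and reads of its paralogs could have been counted with it or lost from it. Its gastrocnemius levels were 197.9, 155.9 and 164.1 CPM in WT mice, 71.9, 172.3 and 110.3 CPM in HSA-LR mice and 67.7, 73.1 and 326.5 CPM in treated mice. Its quadriceps levels were 3360, 586.8 and 391.3 CPM in WT mice, 1636, 2732 and 52.3 CPM in HSA-LR mice and 137.9, 159.1 and 73.6 CPM in treated mice. The quadriceps means of WT and HSA-LR mice were 1446 ± 1661 and 1473 ± 1347 CPM (SD, n = 3), so that the SD of WT mice exceeded their mean.

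Pck1 encodes the cytosolic PEPCK, which makes the glycerol backbone of triglyceride in adipocytes (chr2:173153048-173159273). WT gastrocnemius had 17.9, 14.5 and 16.8 CPM, HSA-LR gastrocnemius 4.56, 12.3 and 4.85 CPM and treated gastrocnemius 3.18, 4.99 and 28.7 CPM. WT quadriceps had 273.1, 52.0 and 46.6 CPM, HSA-LR quadriceps 182.6, 232.6 and 2.42 CPM and treated quadriceps 12.3, 18.7 and 3.26 CPM. The range of 112.8-fold over the 18 libraries was the widest of the 10 genes.

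**Figure D1:**
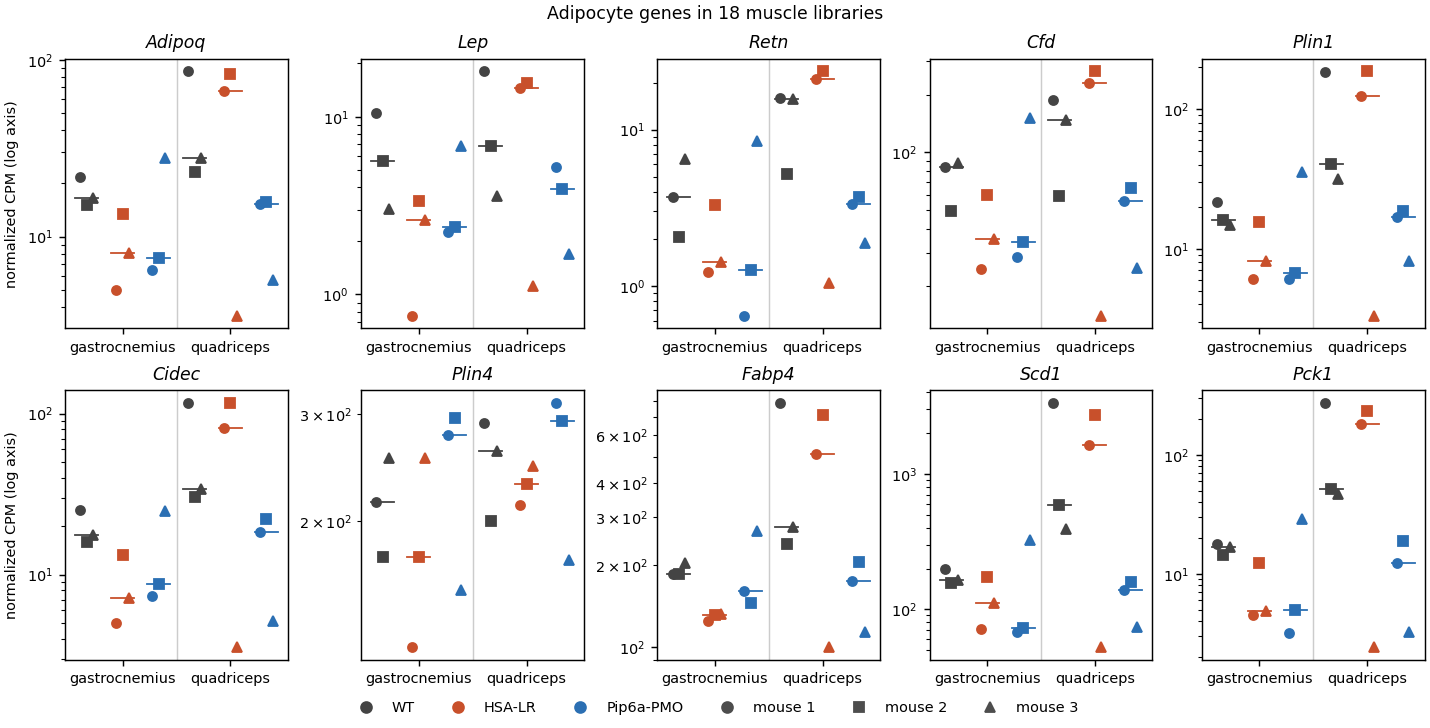
Normalized CPM (log axis) of the 10 adipocyte genes in gastrocnemius and quadriceps, with 1 point per library, colors for the 3 conditions (Pip6a-PMO marks the HSA-LR mice that were treated), shapes for mouse 1, 2 and 3 and a line at each group's median. In 9 panels the quadriceps of HSA-LR mouse 3 is the lowest quadriceps point, and in the Plin4 panel it is the highest of its group.

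A pair of libraries stood apart from their groups in the same genes. The quadriceps of HSA-LR mouse 3 was the lowest of the 9 quadriceps libraries in 9 members, all but Plin4, and the lowest of all 18 libraries in 7 of them. The lower of the other 2 HSA-LR quadriceps exceeded it by 5.12-fold for Fabp4, 18.6-fold for Adipoq and 75.4-fold for Pck1, and for Plin4 the ratio was 0.862. The gastrocnemius of treated mouse 3 was the highest of the 9 gastrocnemius libraries in 7 members, and exceeded the higher of the other treated mice by 1.65-fold for Fabp4, 3.65-fold for Adipoq and 6.65-fold for Retn. Genes of red blood cells moved with both libraries: their sum was 78.97 CPM in the quadriceps of HSA-LR mouse 3 against 194.5 to 702.8 CPM in the other quadriceps, and 3134 CPM in the gastrocnemius of treated mouse 3 against 508.1 to 1095 CPM in the other gastrocnemius libraries except WT mouse 1 at 3863 CPM. The quadriceps of HSA-LR mouse 3 also had the lowest quadriceps sums of slow fiber genes (85.2 CPM against 106.8 to 2026 CPM) and of endothelial genes (186.3 CPM against 210.8 to 356.1 CPM). Nerve and Schwann cell genes moved with both as well: they summed to 27.4 CPM in the former against 33.4 to 81.7 CPM in the other quadriceps, and to 122.6 CPM in the latter against 58.0 to 102.4 CPM in the other gastrocnemius libraries. The part of these genes in the result was not tested. The 2 libraries held 118744722 and 109483236 counts, the latter the lowest total of the gastrocnemius libraries.

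The first question was whether HSA-LR muscle differed from WT muscle. In the gastrocnemius the log2 FC of HSA-LR against WT mice was negative for all 10 members, from -1.52 (Lep, SE 0.64) to -0.23 (Plin4), with a median of -0.96 against -0.01 over all genes tested, and 0 of the 10 were called changed by edgeR's quasi-likelihood test, where called means an adjusted P under 0.1 over all genes (15.5% of 15625 genes were called). Fabp4 came nearest, with a log2 FC of -0.58 (SE 0.20, adjusted P = 0.102), and Cidec followed with -1.22 (SE 0.49, adjusted P = 0.157). At an unadjusted P under 0.05 there were 3 members lower, Cidec, Fabp4 and Lep, against 11.8% of all genes. Each HSA-LR value lay below each WT value for Adipoq, Cidec, Fabp4 and Pck1, 4 of 10, against 16.7% of all genes. DESeq2, with 8.88% of genes called lower, called Fabp4 (adjusted P = 0.042), and limma voom, with 7.05%, called it as well, in each case as the only member. The markers of endothelium, which also expresses Fabp4, summed to 277.6 to 307.5 CPM in HSA-LR and 272.1 to 373.3 CPM in WT gastrocnemius, so these ranges overlapped, and their part in the value of Fabp4 was not tested.

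The calls of this comparison depended on a library that is in neither group. With treated mouse 3 left out of the fit of 9 libraries, which sets the spread for every comparison, edgeR called 4 members lower in HSA-LR than in WT gastrocnemius (9.81% of all genes were then called lower): Adipoq at -1.01 (adjusted P = 0.071), Pck1 at -1.17 (adjusted P = 0.073), Cidec at -1.21 (adjusted P = 0.048) and Fabp4 at -0.56 (adjusted P = 0.0023). The fold changes themselves barely moved (Adipoq had -1.03 and Pck1 -1.19 with all libraries). A fit of WT and HSA-LR libraries alone called Cidec, Fabp4 and Pck1 lower, against 9.68% of genes. Treated mouse 3 was singled out by its values of these same genes.

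In the quadriceps, HSA-LR and WT mice showed no shared direction beyond their spread. The log2 FC ran from -0.12 (Plin4) to 0.38 (Cfd) with SEs of up to 1.23, the median was 0.16 against 0.01 over all genes, and the lowest adjusted P was 0.785. None of the 10 members was called by edgeR (20.3% of genes were), 0 had an unadjusted P under 0.05 (28.1% of genes had), and DESeq2 (23.8% of genes) and limma voom (20.3%) called 0. The median was -0.45 with limma voom and -0.40 without HSA-LR mouse 2, and 1.0 without WT mouse 1, so its sign changed with the setting.

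Pip6a-PMO treated mice were then set against HSA-LR mice without it, which are the same mice as in the comparison with WT. In the quadriceps 9 members had negative values: Pck1 at -3.61 (SE 1.36), Scd1 at -3.58 (SE 1.24), Plin1 at -2.85, Retn at -2.36, Cidec at -2.15, Adipoq at -2.08, Cfd at -1.81, Lep at -1.53 and Fabp4 at -1.43. Plin4 stood at 0.17. The median was -2.11, against -0.01 over all genes, and yet 0 of 10 were called by edgeR (13.8% of genes were), with adjusted P from 0.115 for Scd1 to 0.303 for Lep among the 9. Unadjusted P was under 0.05 for 4 lower members, Pck1, Plin1, Retn and Scd1, against 14.1% of genes. DESeq2 called the same 4 lower, Scd1 with adjusted P = 0.00684, Pck1 with 0.049, Retn with 0.084 and Plin1 with 0.091, where it called 10.5% of genes lower, and limma voom called 0 (13% of genes).

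Treated mice did not fall outside the range of HSA-LR mice. For each of these 9 genes all 3 treated quadriceps lay below HSA-LR mice 1 and 2 and above HSA-LR mouse 3. Without HSA-LR mouse 3, edgeR called all 9 lower in treated quadriceps, where 9.76% of genes were called lower and 17.5% in either direction. Retn then had a log2 FC of -2.91 (SE 0.46, adjusted P = 0.016), Scd1 -4.15 (SE 0.87, adjusted P = 0.033) and Pck1 -4.19 (SE 0.91, adjusted P = 0.036). Adipoq had -2.62 (adjusted P = 0.041), Plin1 -3.42 (adjusted P = 0.035), Cfd -2.35 (adjusted P = 0.033), Cidec -2.71 (adjusted P = 0.054), Fabp4 -1.90 (adjusted P = 0.054) and Lep -2.06 (adjusted P = 0.081). The HSA-LR group then held 2 mice. Mouse 3 was singled out by its values of these same genes, so these calls are no separate support for a fall. Macrophage markers, which no member belongs to, summed to 95.5 to 126.3 CPM in all 3 HSA-LR quadriceps and 49.3 to 72.1 CPM in treated ones, and did not single out mouse 3.

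**Figure D2:**
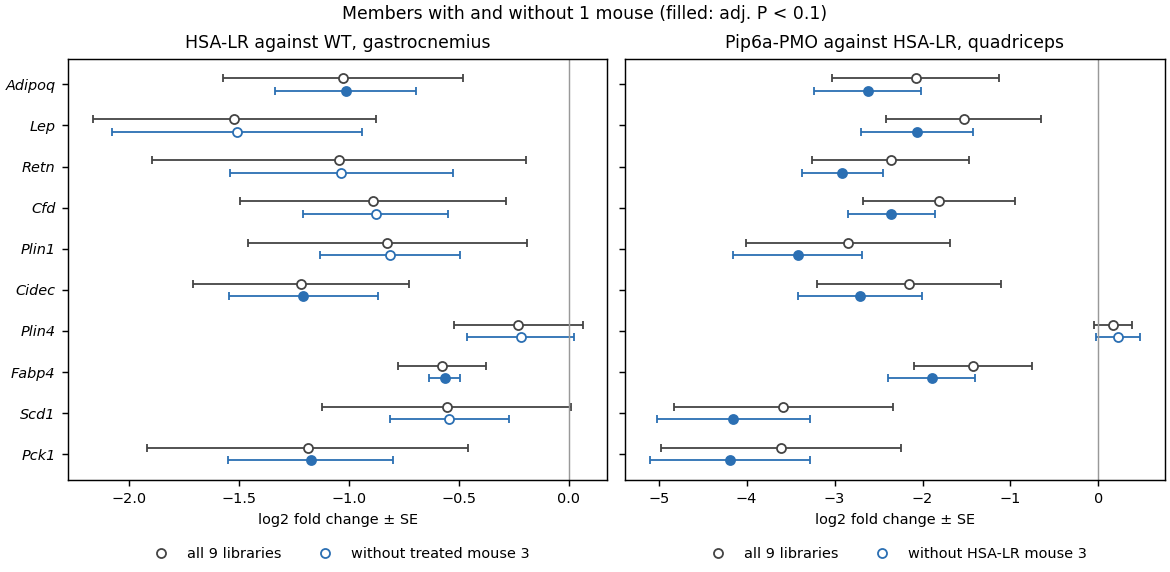
Log2 fold change of each member with its SE (horizontal bars) for HSA-LR against WT gastrocnemius (left) and Pip6a-PMO against HSA-LR quadriceps (right), with all 9 libraries in black and with 1 mouse left out of the fit in blue, filled where adjusted P was under 0.1. With all libraries 0 points are filled, without treated mouse 3 there are 4 on the left, and without HSA-LR mouse 3 there are 9 on the right. Both of these mice were singled out by their values of these same genes.

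In the gastrocnemius all 10 members had positive values for treated against HSA-LR mice, from 0.40 (Plin4) to 0.84 (Cfd), with a median of 0.70 against -0.004 over all genes. None was called by edgeR (10% of genes were). Fabp4, at 0.57 (SE 0.20), was the only member with an unadjusted P under 0.05 (adjusted P = 0.131), as 10.1% of genes had in the higher direction, and the only one whose treated mice all exceeded all HSA-LR mice, as did 13.3% of genes. DESeq2 called it (adjusted P = 0.048), with 7.24% of genes called higher, and limma voom called 0 members (10% of genes). The sign of the median rested on treated mouse 3: without that mouse it was -0.34, and 7 members turned negative, among them Retn at -1.06 and Pck1 at -0.83.

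Treated and WT mice were compared last. In the gastrocnemius the values lay between -0.75 (Lep) and 0.17 (Plin4), the lowest adjusted P was 0.739, and edgeR called 0 of 10 (1.04% of genes), with 0 at an unadjusted P under 0.05 (10.5%), 0 by DESeq2 (3.39%) and 0 by limma voom (0.794%). These values too rested on treated mouse 3: without that mouse the median went from -0.20 to -1.32, with Retn at -2.10, Pck1 at -2.01, Plin1 at -1.46 and Scd1 at -1.30. There were then 8 members lower at an unadjusted P under 0.05, against 7.13% of genes, and 0 were called (lowest adjusted P = 0.121). In the quadriceps 9 members had values from -3.55 (Scd1, SE 1.24, adjusted P = 0.291) and -3.44 (Pck1, SE 1.35, adjusted P = 0.347) to -1.40 (Fabp4), and Plin4 had 0.05. Here too edgeR called 0 (1.41% of genes), with 3 lower at an unadjusted P under 0.05 against 5.55% of genes. DESeq2 called Scd1 alone (adjusted P = 0.022), with 1.77% of genes called lower, and limma voom called 0 (0.963% of genes). All treated quadriceps lay below all WT quadriceps for 7 members, Adipoq, Cidec, Fabp4, Pck1, Plin1, Retn and Scd1, against 8.93% of genes. This comparison takes its spread from all 9 quadriceps, HSA-LR mouse 3 included, and without that mouse Retn was called lower (adjusted P = 0.085), as were 0.649% of genes. Without WT mouse 1 the values were smaller, at -1.99 for Scd1, -2.11 for Pck1, -0.65 for Fabp4 and -0.54 for Lep, the median went from -1.96 to -1.10, and 0 members had an unadjusted P under 0.05.

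Gastrocnemius and quadriceps of the same mouse allowed the 2 muscles to be compared. In WT mice all 10 members were higher in the quadriceps in all 3 mice, with a median ratio over the members of 4.26 in mouse 1, 1.72 in mouse 2 and 1.81 in mouse 3. In HSA-LR mice 1 and 2 all 10 were higher as well, with medians of 16.6 and 6.72, whereas in HSA-LR mouse 3 none was, with a median of 0.485. Treated mice 1 and 2 had medians of 2.33 and 2.12 with 10 and 9 members higher, and treated mouse 3 had 0.224 with 1 higher. Mouse 3 of each of the 2 HSA-LR groups thus had less of at least 9 of these transcripts in its quadriceps than in its gastrocnemius, the reverse of the other 7 mice.

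**Figure D3:**
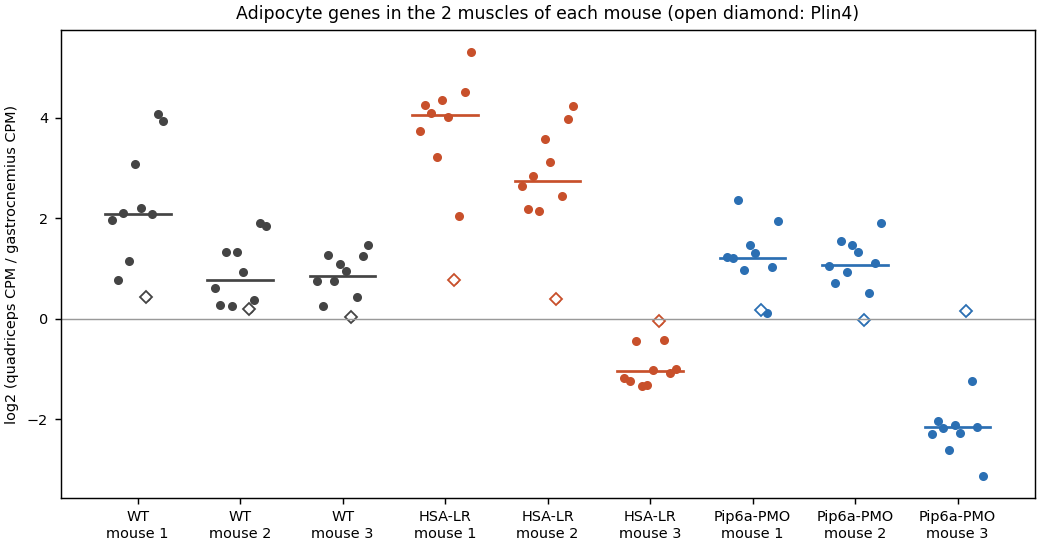
Log2 ratio of quadriceps to gastrocnemius CPM in each of the 9 mice, with 1 filled point per member, an open diamond for Plin4, and a line at the median of the 10 members. The medians lie above 0 in 7 mice and below 0 in HSA-LR mouse 3 and Pip6a-PMO mouse 3.

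By edgeR on all 18 libraries, the quadriceps of WT mice exceeded the gastrocnemius by 3.08 (Scd1, SE 1.05, adjusted P = 0.331), 2.93 (Pck1), 2.29 (Plin1), 1.64 (Cidec), 1.60 (Retn), 1.37 (Adipoq), 1.20 (Fabp4), 0.84 (Cfd), 0.58 (Lep) and 0.23 (Plin4) on the log2 scale. None was called (0.297% of genes were), 4 had an unadjusted P under 0.05 in the higher direction against 4.32% of genes, and DESeq2 called Scd1 (adjusted P = 0.04), with 0.779% of genes called higher. Without WT mouse 1 the differences were 1.63 for Scd1, 1.67 for Pck1 and 0.42 for Fabp4, the median went from 1.49 to 0.83, and 0 members had an unadjusted P under 0.05. The 2 muscles did not overlap for Adipoq, Cidec, Fabp4, Pck1, Plin1 and Scd1, 6 of 10, against 6.16% of genes higher in the quadriceps. In HSA-LR mice the values were larger, up to 4.28 for Pck1 (SE 1.26, adjusted P = 0.124) and 3.65 for Scd1 (SE 1.08, adjusted P = 0.126), and again edgeR called 0 (2.21% of genes). There 9 members had an unadjusted P under 0.05, against 7.24% of genes higher, and DESeq2 called 7 higher, against 3.23% of genes, with adjusted P of 0.00319 for Scd1 and 0.00892 for Pck1. Without HSA-LR mouse 3 edgeR called Fabp4 in HSA-LR mice (2.27, adjusted P = 0.081, with 0.905% of genes called higher), and without treated mouse 3 it called Pck1 (4.28, adjusted P = 0.083, with 1.69%).

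Treated mice showed values from -0.56 (Cfd) to 0.14 (Cidec) between the muscles, with 0 called by edgeR (1.47% of genes), 0 at an unadjusted P under 0.05 (15.7%) and 0 by DESeq2 (5.26%). Without treated mouse 3 their median went from -0.17 to 1.11. Whether the muscle difference itself depended on the condition was tested as an interaction. Against WT mice the muscle difference of HSA-LR mice was larger by 0.10 to 1.64 with adjusted P of 0.9999 throughout. No member was called by edgeR (0% of genes) or DESeq2 (0.148% of genes), and 0 had an unadjusted P under 0.05 (4.39% of genes). Against HSA-LR mice, that of treated mice was lower by -4.38 for Pck1 (SE 1.64), -3.99 for Scd1 (SE 1.43) and -2.75 for Adipoq, with a median of -2.80 over the members. No member was called (0% of genes), the lowest adjusted P was 0.631, 8 members had an unadjusted P under 0.05 in the lower direction against 4.03% of genes, and DESeq2 called 0 (0.161% of genes). Without treated mouse 3 the median was -1.44, with -2.34 for Pck1, -2.57 for Scd1 and -1.06 for Retn, and 0 members had an unadjusted P under 0.05. These fits treat the muscles of a mouse as separate samples, and with the mouse as a block 0 members were called in any of these comparisons. With that block edgeR gave no member an unadjusted P under 0.05 in the muscle difference of treated against HSA-LR mice. Pck1 then had -2.80 (SE 2.01) and Scd1 -2.79 (SE 1.68). Between the muscles of HSA-LR mice only Retn and Fabp4 stayed under that limit, and Plin4 came under it. In WT mice only Scd1 stayed under it. The share of all genes under it with this block was not counted.

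Across the 18 libraries the members moved together except for Plin4. On log2 CPM the correlation of a gene with the mean of the other 9 was 0.996 for Adipoq, 0.992 for Cidec, 0.989 for Plin1, 0.988 for Pck1, 0.968 for Scd1, 0.958 for Fabp4, 0.947 for Cfd, 0.926 for Retn and 0.899 for Lep, against 0.132 for Plin4. These are descriptions over 18 points that share library scaling and, in pairs, a mouse. Ratios within a library showed how closely the genes kept step. Cidec ran at 0.885 to 1.41 times the CPM of Adipoq over all libraries. Scd1 ran at 9.06 to 14.5 times Adipoq in the gastrocnemius and at 9.06 to 39.1 times in the quadriceps, Pck1 at 0.49 to 1.03 and 0.573 to 3.17 times, and Plin1 at 0.888 to 1.27 and 0.93 to 2.23 times. In the quadriceps, then, Pck1, Scd1 and Plin1 varied more than Adipoq did. These ratios compare a gene with itself between libraries and not the amounts of 2 transcripts, since CPM is not per length.

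Among 15264 genes, those with a course most like the mean of the members over the 18 libraries were Mrap (r = 0.994), the accessory protein of melanocortin receptors, Acp5 (0.991), a tartrate-resistant acid phosphatase, Lgals12 (0.985), a galectin of lipid droplets, Trarg1 (0.984), a partner of the glucose transporter Glut4, and Acvr1c (0.983), the activin receptor ALK7. With group means subtracted, Mrap remained first (0.993). The share of all 15264 genes with r over 0.8 was not counted, so the counts by list that come next have no background share. Of 20 other adipocyte genes, 14 had r over 0.8, among them Pparg, Cebpa, Adrb3 and Lipe. The same held for 9 of 13 genes of fatty acid and triglyceride synthesis, 3 of 8 genes each of triglyceride breakdown and of brown adipocytes, 3 of 9 of droplet assembly, 2 of 8 of glyceroneogenesis, 1 of 6 of fatty acid binding and 0 of 6 adipokine receptors. By contrast it held for 0 of 8 fibroblast, 0 of 7 endothelial, 0 of 8 macrophage, 0 of 5 erythroid, 0 of 8 slow fiber and 0 of 10 skeletal muscle genes, and for 1 of 6 nerve genes, S100b (0.911). With group means subtracted, 2 of the 5 erythroid genes also passed 0.8, Alas2 at 0.841 and Hbb-bt at 0.802, where Hbb-bs had 0.789, Hba-a1 0.783 and Hba-a2 0.397.

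The lowest value of the brown fat gene Ucp1 was near 0, at 0.0592 CPM in the gastrocnemius of HSA-LR mouse 3. From that value Ucp1 spanned 3278-fold over the 18 libraries. It stood at 194.1, 13.3 and 27.4 CPM in the quadriceps of WT mice, at 61.0, 187.2 and 0.0832 CPM in HSA-LR mice and at 0.619, 0.346 and 0.207 CPM in treated mice. In the gastrocnemius it stayed between 0.0592 and 0.3 CPM in 8 libraries and reached 9.87 CPM in treated mouse 3. Its highest levels were thus in the libraries with the highest Adipoq. Relative to Adipoq it ran at 0.0056 to 0.356 times in the gastrocnemius and 0.0221 to 2.26 times in the quadriceps. Treated against HSA-LR quadriceps gave -7.74 on the log2 scale (SE 2.12, adjusted P = 0.062), a call that was lost when any 1 of HSA-LR mice 1 and 2 or the 3 treated mice was left out (adjusted P 0.13 to 0.173) and held without HSA-LR mouse 3 (adjusted P = 0.0155).

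**Figure D4:**
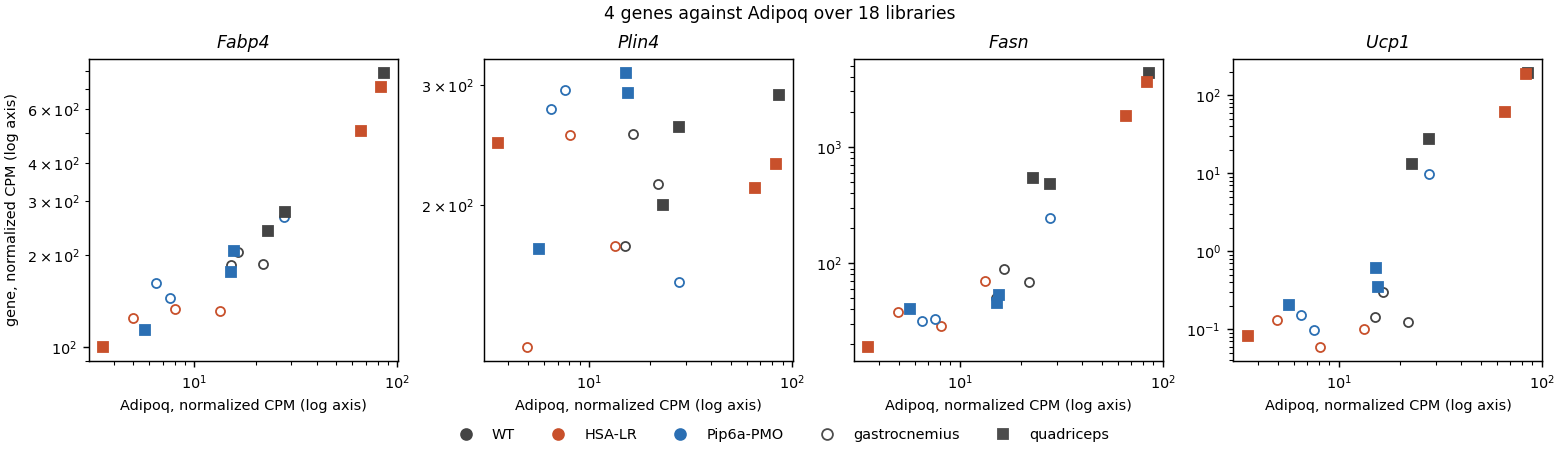
Normalized CPM of Fabp4, Plin4, Fasn and Ucp1 against Adipoq in the 18 libraries (log axes), with open circles for gastrocnemius, filled squares for quadriceps and colors for the 3 conditions. Fabp4, Fasn and Ucp1 are highest where Adipoq is highest, whereas Plin4 stays between 124.0 and 313.1 CPM.

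Of the brown and beige list, 4 of 9 genes tested fell in treated against HSA-LR quadriceps and 0 rose, where 13.8% of all genes were called: Ucp1, Cidea, Elovl3 and Dio2. In Cidea, a droplet protein of brown adipocytes, levels were 102.4, 9.62 and 10.8 CPM in WT, 35.5, 90.0 and 0.491 CPM in HSA-LR and 1.54, 1.62 and 0.406 CPM in treated quadriceps, with a log2 FC of -5.15 (adjusted P = 0.09). In the gastrocnemius Cidea went the other way. It stood at 0.582, 0.506 and 1.06 CPM in WT, 0.502, 0.485 and 0.55 CPM in HSA-LR and 1.62, 1.06 and 4.95 CPM in treated mice, and rose in treated against HSA-LR mice by 2.32 (SE 0.55, adjusted P = 0.0445). Without treated mouse 3 that rise was 1.38 (adjusted P = 0.0588), and the call was lost without any 1 of the HSA-LR mice (adjusted P 0.118 to 0.156). HSA-LR quadriceps exceeded HSA-LR gastrocnemius in 5 of 9, against 2.21% of all genes called, with 9.72 for Ucp1 (SE 2.32, adjusted P = 0.067) and 6.37 for Cidea (adjusted P = 0.052). With the mouse as a block Ucp1 (adjusted P = 0.0278) and Elovl3 (adjusted P = 0.00657) were still called there and Cidea was not (adjusted P = 0.118). Ucp1 (adjusted P = 0.0435) and Elovl3 (adjusted P = 0.006) were then called in WT mice too. Elovl3 had too few counts to be tested within the gastrocnemius alone. Tbx1 is in the beige list and rose in quadriceps against gastrocnemius of all 3 conditions (2.43, 2.79 and 2.89), yet at 26.8 to 42.5 CPM in every quadriceps and 1.53 to 8.96 CPM in every gastrocnemius it differed from Adipoq, and its 41.9 CPM in the quadriceps of HSA-LR mouse 3 was the highest value of that group. Cox8b, which muscle expresses too, fell in HSA-LR against WT gastrocnemius (131.4, 146.3 and 143.8 CPM in WT against 100.2, 90.8 and 91.5 CPM in HSA-LR, adjusted P = 0.00706). Cox8b was also called lower in HSA-LR against WT quadriceps (-0.59 to -0.454 over the fits that left out 1 mouse). In treated against HSA-LR gastrocnemius Cox8b was called higher (0.401 to 0.578 over such fits).

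Genes of lipid synthesis followed. Fasn, the fatty acid synthase, stood at 4335, 543.9 and 475.2 CPM in WT quadriceps, at 1828, 3641 and 19.0 CPM in HSA-LR quadriceps and at 45.5, 53.0 and 40.8 CPM in treated quadriceps. It fell in treated against HSA-LR quadriceps by 5.31 on the log2 scale (SE 1.56, adjusted P = 0.075), as did Acly, Elovl6 and Thrsp. Of the 14 genes tested 4 fell and 1, Lpin1, rose (0.95, adjusted P = 0.0146), against 13.8% of all genes called. All treated values of Fasn lay below HSA-LR mice 1 and 2 and above HSA-LR mouse 3. Its log2 FC ran from -5.89 to -4.33 over the fits that left out 1 mouse, and whether the 4 calls held in those fits is not given here. Lpin1, a phosphatidate phosphatase that muscle expresses, had 152.3, 184.9 and 174.7 CPM in HSA-LR quadriceps with mouse 3 in the middle, unlike Fasn. In HSA-LR against WT quadriceps Lpin1 was called lower (-0.944 to -0.721 over the fits that left out 1 mouse). In HSA-LR mice 6 of 14 were higher in the quadriceps than in the gastrocnemius, against 2.21% of all genes called, and of these Elovl6 was still called with the mouse as a block whereas Fasn, Acly, Acaca, Thrsp and Agpat2 were not. Acly, Elovl3, Elovl6, Dio2, Thrsp, Acaca, Agpat2, S100b, Pparg, Adrb3 and Lipe were chosen after their values were seen.

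In the gastrocnemius Me1, the malic enzyme that supplies NADPH, fell in HSA-LR mice (286.8, 246.9 and 178.2 CPM in WT, 122.9, 137.8 and 133.3 CPM in HSA-LR) by 0.86 (adjusted P = 0.0167) and rose by 0.64 in treated mice (adjusted P = 0.0743). Gpd1 and Gpd2, the glycerol phosphate dehydrogenases, fell in HSA-LR mice (-0.59 and -1.10) and rose in treated ones (0.58 and 0.93), and Pcx, pyruvate carboxylase, fell in HSA-LR mice (-0.83, adjusted P = 0.0453). These made 3 of 8 genes of glyceroneogenesis lower in HSA-LR against WT gastrocnemius (15.5% of all genes were called) and 2 of 8 higher after treatment (10% of all genes), whereas Pck1 of the same pathway was called in neither. Of the 20 other adipocyte genes, Itih4 rose and Cebpb and Gpd1 fell in HSA-LR gastrocnemius, where 15.5% of all genes were called. All 3 changed in the opposite direction in treated mice (10% of all genes). Itih4 was also called higher in HSA-LR against WT quadriceps (2.43 to 3.17 over the fits that left out 1 mouse). In treated against HSA-LR quadriceps Itih4 was called lower (-1.77 to -1.53) and Cebpb higher (0.61 to 0.79). With the mean of the members Itih4 and Cebpb had r of -0.217 and 0.015. Cebpb, a transcription factor of early fat cell formation that many cells express, stood at 9.01, 7.94 and 12.2 CPM in WT, 5.96, 6.45 and 5.56 CPM in HSA-LR and 12.6, 11.3 and 11.6 CPM in treated gastrocnemius. Itih4, an inhibitor of the inter-alpha-trypsin family, stood at 0.213, 0.275 and 0.627 CPM in WT, 1.34, 1.34 and 1.27 CPM in HSA-LR and 0.513, 0.412 and 0.235 CPM in treated gastrocnemius. Within each muscle, both comparisons use the same HSA-LR mice.

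The remaining lists had few calls. Over all genes, 20.3% were called in HSA-LR against WT quadriceps and 13.8% in treated against HSA-LR quadriceps. In the gastrocnemius these shares were 15.5% and 10%, and between the muscles of HSA-LR mice the share was 2.21%. Of 6 genes of fatty acid binding and uptake, Fabp3, the muscle fatty acid binding protein, fell in HSA-LR quadriceps (-1.35, adjusted P = 0.0215) and rose after treatment (1.69, adjusted P = 0.018). Fabp3 stood at 130.4, 102.7 and 126.3 CPM in HSA-LR quadriceps, so mouse 3 was not set apart as it was for Fabp4. Slc27a1, a fatty acid transporter, fell in HSA-LR quadriceps (-0.77, adjusted P = 0.0758), and Gpihbp1, the capillary anchor of lipoprotein lipase, was the only called gene of triglyceride breakdown (-0.59, adjusted P = 0.0691). Of the adipokine receptors only C3ar1, a complement receptor that binds fragments downstream of adipsin and is expressed by macrophages, was called, at 1.02 in HSA-LR against WT quadriceps (adjusted P = 0.0147), where macrophage markers summed to 95.5 to 126.3 CPM against 51.8 to 73.3 CPM, and at -0.85 in treated against HSA-LR quadriceps (adjusted P = 0.0469), where they summed to 49.3 to 72.1 CPM in treated mice. The part of macrophages in these values was not tested. Of the droplet genes, Fitm1 rose slightly in HSA-LR gastrocnemius and quadriceps (0.33 and 0.28) and Hilpda fell in treated against HSA-LR gastrocnemius (-0.62, adjusted P = 0.0857), and Ppargc1a, a coactivator of mitochondrial genes, rose in treated against HSA-LR quadriceps (0.68, adjusted P = 0.0979). Pnpla3, a lipase-like protein that follows lipid synthesis, was higher in the quadriceps than in the gastrocnemius of HSA-LR mice (3.48, adjusted P = 0.0808), a call lost with the mouse as a block. For adiponectin and leptin receptors no call was made in any comparison.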

How the data were processed

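RNA of gastrocnemius and quadriceps from 9 mice (3 WT, 3 HSA-LR and 3 HSA-LR given Pip6a-PMO, with replicate numbers from the labels) was polyA selected and made into stranded libraries. As deposited by the authors, the values are unnormalized counts of read pairs on exon bins, and the submitters' processing notes name CASAVA, HISAT, featureCounts 1.5.0 and GRCm38 without their roles. A gene's count was the sum of its bins, so that a pair spanning more than 1 bin adds to each of them. Entries that name no gene, 2.82% to 4.14% of a library, were left out. GENCODE M21 (GRCm38) gave symbols for 46520 of 46725 genes. The genes Scd2, Srebf1, Pdgfra, Col3a1 and Egfl7 were not analysed here. The dose given to the sequenced mice is not given in the sources used here.

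Genes passed filterByExpr (minimum count 10, minimum total 15), were scaled by TMM and tested by edgeR 4.0.16 (glmQLFit, glmQLFTest) in R 4.3.3 with Benjamini-Hochberg adjustment over all genes, fitting 9 libraries per muscle together, or all 18 for comparisons of muscles. Calls were at an adjusted P under 0.1. P-values measure the spread between mice. For correlations, log2 CPM had a prior count of 2. Scripts were tested on simulated data. DESeq2 1.42.0, limma 3.58.1 (voom), upper-quartile scaling, no filter, the largest bin, fits of 2 groups, blocks and leaving out each mouse were alternatives. Other software was Python 3.11.15, pandas 2.3.3, numpy 2.4.6 and matplotlib 3.10.9.

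Named are every member, the genes of each list called in any comparison (where more than 4 or none were, the 3 with the highest mean CPM), and the genes most like the members over the 18 libraries. The members and lists were chosen with earlier results of these data known. Both muscles of a mouse share its number: their deviations from group means correlated with a median r of 0.214 (0.0626 to 0.511, over 0.1 in 7 of 9 mice) against -0.0902 for different mice, so the mouse was also fitted as a block. Across conditions a number marks different mice.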

Additional observations from a re-analysis of the deposited data

How the results depend on the processing

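The causes of the changes below were not tested except where fewer samples set them. HSA-LR against WT gastrocnemius had 0 called members as reported and 1 with the replicate number as a block, with the largest exon bin, with no filter, with DESeq2 and with limma voom, and 3 in a fit of the 2 groups alone. DESeq2 called 1 member in treated against HSA-LR gastrocnemius, 4 in treated against HSA-LR quadriceps, 1 in treated against WT quadriceps, and between muscles 1 in WT and 7 in HSA-LR mice, where edgeR called 0. Leaving out each mouse in turn gave 0 to 4 called members for HSA-LR against WT gastrocnemius (1 without treated mouse 2, 4 without treated mouse 3), 0 to 1 for treated against HSA-LR gastrocnemius, 0 to 9 for treated against HSA-LR quadriceps (1 without WT mouse 1, 9 without HSA-LR mouse 3), 0 to 1 for treated against WT quadriceps and 0 to 1 between the muscles of HSA-LR mice. The share of all genes called was not counted for the replicate block, the largest exon bin or no filter. Among the fits that left out a mouse, it was counted only for HSA-LR mouse 3 and treated mouse 3. The other calls under these settings thus have no background share. Of the log2 FC of members under alternatives, over all 11 comparisons, 1520 kept direction and side of the threshold, 41 became called, and 99 reversed. For listed genes that had been called, 644 such values stayed called and 203 did not.

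The reversals lay in 6 comparisons, and each range below is over the fits that left out 1 mouse. In treated against HSA-LR gastrocnemius, where leaving out treated mouse 3 reversed 7 members, the ranges were -0.33 to 1.11 for Adipoq, -0.64 to 1.18 for Plin1, -0.081 to 1.18 for Cidec, -1.06 to 1.38 for Retn, -0.36 to 1.26 for Cfd, -0.76 to 0.79 for Scd1 and -0.83 to 1.40 for Pck1, and limma voom gave -0.034 for Retn. In treated against WT gastrocnemius they were -1.46 to 0.26 for Plin1, -0.33 to 0.16 for Fabp4, -2.10 to 0.25 for Retn, -1.24 to 0.33 for Cfd, -1.30 to 0.21 for Scd1 and -2.01 to 0.039 for Pck1, and Fabp4 had 0.001 with upper-quartile normalization and 0.007 with DESeq2. In HSA-LR against WT quadriceps they were -0.39 to 1.01 for Adipoq, -0.42 to 1.54 for Plin1, -0.51 to 0.78 for Fabp4, -0.51 to 1.05 for Cidec, -0.28 to 0.99 for Lep, -0.15 to 0.87 for Retn, -0.097 to 0.92 for Cfd, -0.78 to 1.60 for Scd1, -0.26 to 0.001 for Plin4 and -0.42 to 1.5 for Pck1. There the replicate block gave -0.33 for Adipoq, -0.14 for Plin1, -0.17 for Fabp4, -0.52 for Cidec, -0.13 for Lep, -0.13 for Retn, -0.17 for Cfd, -0.27 for Scd1 and -0.59 for Pck1, and limma voom gave -0.48 for Adipoq, -0.53 for Plin1, -0.17 for Fabp4, -0.61 for Cidec, -0.25 for Lep, -0.41 for Retn, -0.30 for Cfd, -0.57 for Scd1 and -0.89 for Pck1. In treated against WT quadriceps the range was -0.11 to 0.26 for Plin4. Between the muscles of treated mice the ranges were -0.73 to 1.14 for Adipoq, -0.73 to 1.48 for Plin1, -0.57 to 0.32 for Fabp4, -0.47 to 1.33 for Cidec, -0.72 to 0.99 for Lep, -0.80 to 1.89 for Retn, -1.16 to 0.96 for Cfd, -0.91 to 1.09 for Scd1 and -1.04 to 1.93 for Pck1. There the mouse as a block gave 0.10 for Adipoq, 0.39 for Plin1, 0.035 for Lep, 0.63 for Retn, 0.099 for Scd1 and 0.55 for Pck1, and the largest exon bin gave 0.035 for Plin1 and 0.025 for Retn. In the muscle difference of HSA-LR against WT mice the range was -0.062 to 0.35 for Plin4.

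The replicate number as a block marks no shared mouse between conditions, and same-numbered libraries of different groups correlated with a median r of 0.00155 (over 0.1 in 5 of 18 pairs). That block changed the call of 1 member, Fabp4 in HSA-LR against WT gastrocnemius (log2 FC -0.57, adjusted P = 0.0951). With it the calls of Ucp1, Cidea and Elovl3 in treated against HSA-LR quadriceps were lost (adjusted P = 0.116, 0.118 and 0.158). The mouse as a block, which pairs the muscles, gave 0 called members in all comparisons of muscles. Depth was no limit for the members, whose lowest count was 84.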
